A study of Mus musculus with 8 samples.

Results

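The 10 genes described here are FGF receptors (Fgfr1, Fgfr2, Fgfr3), the ligand gene Fgf8 and genes whose transcription follows FGF signalling (Spry1, Spry2, Spry4, Etv1, Etv4, Etv5), chosen by symbol among the 27998 genes of the gene list that all 8 libraries share. All 10 were found in every library. Fgfr3 has another role in these mice, because its promoter drives the Cre recombinase that switches on the Atoh1 transgene.

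FGF ligands bind tyrosine kinase receptors on the cell surface, and the receptors signal mainly through the MAP kinase cascade. Active signalling raises transcription of the Etv1, Etv4 and Etv5 transcription factors and of the Sprouty genes, whose products hold the same cascade in check. In the organ of Corti, Fgf8 is known as a product of inner hair cells (IHCs) that acts on Fgfr3 in the neighbouring supporting cells (SCs), and Fgfr3 marks Deiters' cells (DCs) and pillar cells (PCs).

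Single-cell RNA-seq (10x Genomics, 3' tags with unique molecular identifiers, UMIs) was performed on dissociated mouse organ of Corti. All mice carried the alleles Fgfr3iCre+, Atoh1-HA+, Chrna9-GFP+ and Rosa26-CAG-loxP-stop-loxP-tdTomato+, uninduced controls included. By the labels, tamoxifen was given at P12 to P13 to activate the Cre in the groups Coch + Tmx P26 (3 libraries) and Coch + Tmx P33 (2 libraries), taken at P26 and P33. Coch P12 (2 libraries) and Coch P33 (1 library) had none. The paper describes 2 biological replicates for each group, unlike these library counts. The Cre acts in DCs and PCs only where Fgfr3-iCreER is active, so only part of each library could convert, and whether transgene transcripts contribute UMIs to Fgfr3 is not given in the sources used here. The study calls its replicates biological, but the labels do not tie libraries to animals, so p-values measure the spread between these libraries.

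The libraries held between 3972800 and 13423524 UMIs, and 5970 cells were kept, in 13 classes named from fixed markers and 10 unnamed clusters. The DC and PC class, called SC-like, had 128 cells, with the summed level of 15 SC markers at 26298 to 50248 CPM (UMIs scaled to a common library total, the usual CPM unit) in its libraries and at least 14 of the 15 detected. The converted hair cells (cHC-like, 114 cells) carried SC markers at 5865 to 10969 CPM beside cHC markers at 7573 to 12316 CPM. The hair cell class (HC-like, 62 cells) was mixed: in Coch + Tmx P33 replicates 1 and 2 its SC markers (13295 and 19829 CPM) exceeded its HC markers (6764 and 3641 CPM), while in Coch P12 replicates 1 and 2 the HC markers stood at 21179 and 33503 CPM. Comparisons with the HC-like class were therefore also made without its Coch + Tmx P33 sums, in a fit with 2 residual degrees of freedom that pooled the spread over all genes. In that fit no library held both cHC-like and HC-like sums. The HC-like sums were all from Coch P12 and the cHC-like sums all from induced libraries, so age and tamoxifen differed with class. The median share of mitochondrial UMIs was 5.58% in SC-like, 10.71% in cHC-like and 14.47% in HC-like cells. A mitochondrial limit of 10% left no HC-like comparison, so these comparisons were not checked at that limit. Atoh1 was at 405 and 517 CPM in the Coch + Tmx P33 libraries, and at 172 and 90.9 CPM in Coch + Tmx P26 replicates 1 and 2. The library labelled Coch + Tmx P26 replicate 3 had 12.4 CPM, below the uninduced libraries (16.5 to 23.5 CPM), and held no cHC-like cells. It was kept under its label in all comparisons, and it gave the only SC-like sum of Coch + Tmx P26.

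Levels are given as CPM of the cells of 1 class in 1 library, with at least 5 cells for the SC-like, cHC-like and HC-like classes and 10 for the others. Tests were made on these sums with edgeR's quasi-likelihood test, Benjamini-Hochberg adjusted over all genes, and a gene is called where the adjusted p is under 0.05. With 6 SC-like, 4 cHC-like and 4 HC-like sums, the library was a block, and 6 of the 10 genes (Fgf8, Fgfr1, Fgfr3, Spry2, Etv1, Etv5) passed the filter on low counts. Only the 2 Coch + Tmx P33 libraries held both cHC-like and SC-like sums, and the other libraries bear on the comparison of these classes only through the HC-like sums and the shared estimate of the spread.

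**Figure D1:**
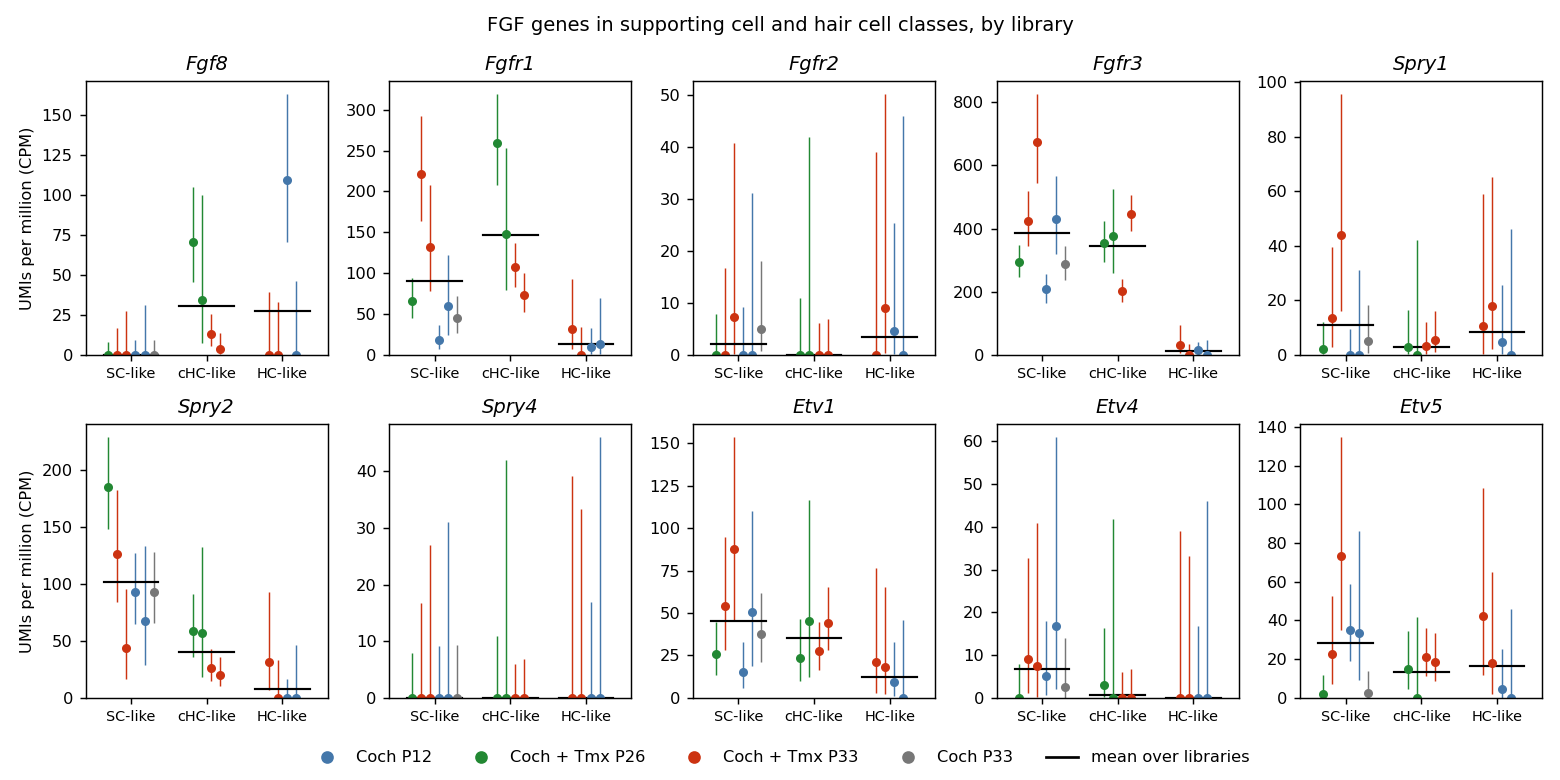
Level of each of the 10 genes in CPM (vertical axis, a separate scale per gene) in SC-like, cHC-like and HC-like cells. Points are libraries coloured by group, vertical lines exact 95% Poisson intervals that cover counting error only, and black lines means; Fgf8 lies at 0 in all 6 SC-like sums, and Fgfr3 at 31.8 CPM or less in HC-like cells.

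Fgf8, the ligand, was detected in hair cells and converted cells and in no other named class. In cHC-like cells its level was 70.7 and 34.1 CPM in Coch + Tmx P26 replicates 1 and 2, and 13.1 and 3.67 CPM in Coch + Tmx P33 replicates 1 and 2. In SC-like cells it was 0 in all 6 libraries, and in HC-like cells 110 CPM in Coch P12 replicate 1 and 0 in the other 3. The limit that 3 UMIs set for these 6 zeros ran from 6.39 to 25.3 CPM. Both cHC-like P26 libraries, with 24 and 3 UMIs, thus lay above every SC-like limit and above the P33 libraries, the P33 levels, from 8 and 2 UMIs, lay below the SC-like limit of their own library, and 1 library supplied the whole HC-like signal. Over all libraries 37 UMIs in cHC-like cells against 0 in SC-like cells made the level at least 13.95-fold higher, with the limit set at 3 UMIs over the pooled SC-like cells. Within Coch + Tmx P33, with 10 UMIs against 0, this bound was 1.03-fold. edgeR called Fgf8 higher in cHC-like than in SC-like cells (adjusted p = 0.00809) and higher in HC-like than in SC-like cells (adjusted p = 0.00821). The first call was lost without Coch + Tmx P33 replicate 1 (adjusted p = 0.15), without Coch P12 replicate 1 (0.267), without the Coch + Tmx P33 HC-like sums (0.18), with a minimum of 10 cells per sum (0.138), with a mitochondrial limit of 10% (0.777) and with DESeq2 (0.707). The second was lost without Coch P12 replicate 1, where all 24 HC-like UMIs lay (adjusted p = 1), and with DESeq2 (0.785), and held without the Coch + Tmx P33 HC-like sums (0.00013).

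The 24 HC-like UMIs of Fgf8 came from 8 cells. All 8 held UMIs of Slc17a8, the vesicular glutamate transporter of IHCs, none held Slc26a5, the motor protein of outer hair cells (OHCs), and 5 held Ocm, the OHC calcium-binding protein oncomodulin. Of all 62 HC-like cells 27 held Slc17a8, 31 Slc26a5 and 51 Ocm, while 0.714%, 0% and 2.68% of macrophage-like cells, which should lack these genes, held a UMI of them. The 37 cHC-like UMIs came from 19 of 114 cells. Of these 19 cells all held Chrna9, the nicotinic receptor subunit that drives the GFP reporter, 15 held Fgfr3, 5 held the hair cell transcription factor gene Pou4f3, and none held Slc17a8 or Ocm. Among all 114 cHC-like cells 108 held Chrna9, 93 Fgfr3, 69 Pou4f3, 1 Slc17a8 and 2 Ocm, and Chrna9 and Pou4f3 had a UMI in 1.07% and 0.357% of macrophage-like cells.

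Fgfr3 was high in SC-like and cHC-like cells and near 0 in HC-like cells. Its SC-like level stood at 207 and 430 CPM in Coch P12 replicates 1 and 2, 294 CPM in Coch + Tmx P26 replicate 3, 425 and 674 CPM in Coch + Tmx P33 replicates 1 and 2, and 286 CPM in Coch P33. In cHC-like cells it stood at 353 and 375 CPM in Coch + Tmx P26 replicates 1 and 2 and at 201 and 446 CPM in Coch + Tmx P33 replicates 1 and 2. In HC-like cells it was 13.7 and 0 CPM in Coch P12 replicates 1 and 2, and 31.8 and 0 CPM in Coch + Tmx P33 replicates 1 and 2. The SC-like and cHC-like ranges overlapped, and both lay wholly above the HC-like range. Fgfr3 was lower in HC-like than in SC-like cells by 5.05 ± 0.53 (log2, standard error, SE; edgeR adjusted p = 3.96e-06). It was higher in cHC-like than in HC-like cells by 4.30 ± 0.62 (adjusted p = 0.000428). Both calls held under all the alternatives that gave a value. Without the Coch + Tmx P33 HC-like sums the second difference was 4.07, in a fit where no library held both classes.

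Between cHC-like and SC-like cells Fgfr3 was not called. The fitted log2 difference was -0.75 ± 0.44 (95% interval -1.68 to 0.187; adjusted p = 0.243). Within Coch + Tmx P33 the cHC-like level was 0.473 of the SC-like level in replicate 1 (95% counting interval 0.359 to 0.625) and 0.661 in replicate 2 (0.518 to 0.85), so the cHC-like level was the lower in both. With a minimum of 10 cells per sum, in a fit with 1 residual degree of freedom, the same difference was called (-0.83; adjusted p = 0.00372), as it was without the Coch + Tmx P33 HC-like sums (-0.82; adjusted p = 0.024). The pooled levels over all libraries, 330 CPM for SC-like and 327 CPM for cHC-like cells, do not show it.

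At the level of cells, Fgfr3 had a UMI in 118 of 128 SC-like cells (92.2%), 93 of 114 cHC-like cells (81.6%) and 4 of 62 HC-like cells (6.45%), at median depths of 14253, 12960.5 and 7283 UMIs. After each cell was thinned to 1000 UMIs the shares were 29.7% in SC-like (exact binomial 95% interval 21.9 to 38.4), 24.6% in cHC-like (17.0 to 33.5) and 0% in HC-like cells, where 0 of 62 allows up to 4.84% by the limit of 3 cells. Macrophage-like cells, which should lack Fgfr3, gave 0.536% thinned and 1.96% unthinned at a median of 6052.5 UMIs. The SC-like and cHC-like intervals overlapped, and both lay above the macrophage-like share.

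**Figure D2:**
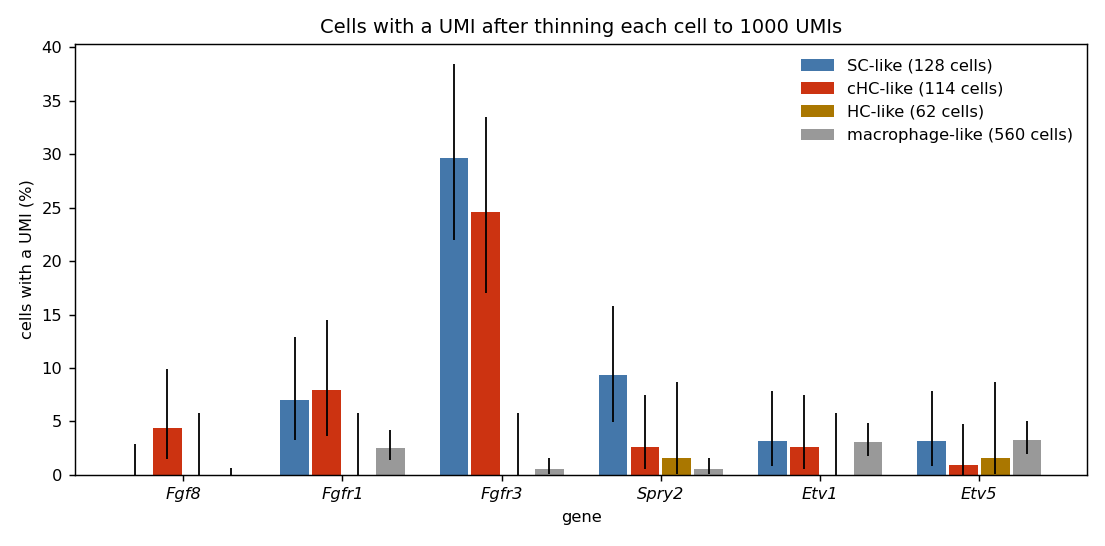
Share of cells with at least 1 UMI of 6 of the genes (vertical axis, percent) after thinning to 1000 UMIs, in 4 classes. Lines are exact binomial 95% intervals that cover counting error only; Fgfr3 stands at 29.7% and 24.6% in SC-like and cHC-like cells, while Etv1 and Etv5 reach about the same share in macrophage-like cells (3.04% and 3.21%) as in SC-like cells (3.12% each).

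Fgfr3 lies at chr5:33721724-33737068 on the plus strand. Since its promoter drives the Cre, the 300 bases around each of its 2 start sites in RefSeq (GRCm38.p6, chr5:33721474-33721773 and chr5:33722056-33722355, 250 bases before to 50 after the start) are shown. Capitals mark an E-box (CANNTG on either strand), the letters that basic helix-loop-helix factors such as ATOH1 bind, and the ETS core (CCGGAA on either strand), the letters that Etv factors bind. No E-box overlaps an ETS core in the windows shown, and of 32851 RefSeq windows of this length 72.3% hold an E-box and 14.9% the ETS core.

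Fgfr3 start 1: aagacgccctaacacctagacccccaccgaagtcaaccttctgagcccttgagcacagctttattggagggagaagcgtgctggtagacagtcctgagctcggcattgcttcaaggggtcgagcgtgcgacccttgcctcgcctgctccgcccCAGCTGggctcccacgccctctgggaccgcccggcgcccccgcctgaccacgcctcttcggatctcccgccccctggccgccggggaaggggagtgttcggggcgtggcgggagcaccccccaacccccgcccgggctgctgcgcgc

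Fgfr3 start 2: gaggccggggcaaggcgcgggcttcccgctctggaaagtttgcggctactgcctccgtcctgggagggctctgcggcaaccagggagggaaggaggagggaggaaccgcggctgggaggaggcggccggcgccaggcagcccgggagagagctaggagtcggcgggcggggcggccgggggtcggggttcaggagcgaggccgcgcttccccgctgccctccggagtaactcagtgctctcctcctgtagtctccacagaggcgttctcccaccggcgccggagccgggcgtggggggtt

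The first Fgfr3 window held 1 E-box and no ETS core, and the second held neither motif.

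The other receptors were distributed differently. Fgfr1 in SC-like cells was 17.5 and 59.1 CPM in Coch P12 replicates 1 and 2, 66.0 CPM in Coch + Tmx P26 replicate 3, 221 and 132 CPM in Coch + Tmx P33 replicates 1 and 2, and 45.1 CPM in Coch P33. In cHC-like cells it was 259 and 148 CPM in Coch + Tmx P26 replicates 1 and 2 and 108 and 73.4 CPM in Coch + Tmx P33 replicates 1 and 2. In HC-like cells it was 9.14 and 12.5 CPM in Coch P12 and 31.8 and 0 CPM in Coch + Tmx P33. The SC-like and HC-like ranges overlapped, and the cHC-like libraries lay above all HC-like libraries. Fgfr1 was lower in HC-like than in SC-like cells by 2.89 ± 0.57 (log2, SE; adjusted p = 0.00162) and higher in cHC-like than in HC-like cells by 2.10 ± 0.63 (adjusted p = 0.0393). Neither was called without the Coch + Tmx P33 HC-like sums (adjusted p = 0.161 and 0.824) or with a minimum of 10 cells (0.618 and 1), and the second was also lost without Coch + Tmx P33 replicate 1 (0.298) or replicate 2 (0.453) and with DESeq2 (0.254). Between cHC-like and SC-like cells the difference was -0.79 ± 0.42 (95% interval -1.69 to 0.099; adjusted p = 0.192), and without the library block its sign turned (0.74; adjusted p = 0.287). It was called lower with a minimum of 10 cells (-0.97; adjusted p = 0.0117) and without the Coch + Tmx P33 HC-like sums (-0.95; 0.0352). Within Coch + Tmx P33 the cHC-like level of Fgfr1 was 0.487 of the SC-like level in replicate 1 (95% counting interval 0.331 to 0.72) and 0.557 in replicate 2 (0.312 to 1.03). Fgfr2 was almost absent from all 3 classes, with 3 UMIs in SC-like, 0 in cHC-like and 2 in HC-like cells.

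Among the Sprouty genes, which encode feedback inhibitors of receptor tyrosine kinase signalling, Spry2 was higher in SC-like cells than in either hair cell class. Its level there was 92.5 and 67.5 CPM in Coch P12 replicates 1 and 2, 185 CPM in Coch + Tmx P26 replicate 3, 126 and 44.0 CPM in Coch + Tmx P33 replicates 1 and 2, and 92.8 CPM in Coch P33. In cHC-like cells it was 58.9 and 56.8 CPM in Coch + Tmx P26 and 26.1 and 20.18 CPM in Coch + Tmx P33. In HC-like cells it was 31.8 CPM in Coch + Tmx P33 replicate 1 and 0 in the other 3. Only the lowest SC-like library, Coch + Tmx P33 replicate 2, fell inside the cHC-like range. Spry2 was lower in cHC-like than in SC-like cells by 1.90 ± 0.58 (log2, SE; adjusted p = 0.0226). It was lower in HC-like than in SC-like cells by 3.79 ± 0.71 (adjusted p = 0.00098), and this second call held under all the alternatives that gave a value. The first was lost without Coch + Tmx P33 replicate 1 (-1.08; adjusted p = 0.543), with DESeq2 (0.235) and with a mitochondrial limit of 10% (0.225). Within Coch + Tmx P33 the cHC-like level was 0.207 of the SC-like level in replicate 1 (95% counting interval 0.104 to 0.395) and 0.459 in replicate 2 (0.156 to 1.51).

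Spry2 had a UMI in 79 of 128 SC-like cells (61.7%), 33 of 114 cHC-like cells (28.9%) and 18 of 560 macrophage-like cells (3.21%). At 1000 UMIs per cell the shares were 9.38% (exact interval 4.94 to 15.8), 2.63% (0.546 to 7.5) and 0.536%. In SC-like cells 73 of the 79 cells with Spry2 also held Fgfr3, about the share among all SC-like cells (118 of 128). Spry2 lies at chr14:105891947-105896819, and its RefSeq promoter window (GRCm38.p6, chr14:105896770-105897069, minus strand) held 1 E-box and 1 ETS core, shown in capitals for comparison with Fgfr3.

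Spry2: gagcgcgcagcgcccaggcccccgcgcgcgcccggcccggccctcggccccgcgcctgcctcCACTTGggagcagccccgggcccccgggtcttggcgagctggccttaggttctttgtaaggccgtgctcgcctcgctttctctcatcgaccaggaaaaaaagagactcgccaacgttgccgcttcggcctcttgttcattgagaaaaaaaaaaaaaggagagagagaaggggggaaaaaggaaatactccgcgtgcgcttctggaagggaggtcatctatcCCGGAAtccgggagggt

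Spry1 gave 12, 6 and 6 UMIs in SC-like, cHC-like and HC-like cells and was too low to be tested there. Its highest SC-like level, 44.0 CPM in Coch + Tmx P33 replicate 2, rested on 6 UMIs. Spry4 had no UMI in any of the 3 classes, where the limit of 3 UMIs over the class stood at 1.67 CPM for SC-like, 1.89 CPM for cHC-like and 4.74 CPM for HC-like cells.

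The Etv transcription factors, the nuclear end of the pathway, were detected at 0 to 87.9 CPM in the sums of the 3 classes. Etv1 in SC-like cells was 15 and 50.6 CPM in Coch P12 replicates 1 and 2, 25.6 CPM in Coch + Tmx P26 replicate 3, 54.2 and 87.9 CPM in Coch + Tmx P33 replicates 1 and 2, and 37.6 CPM in Coch P33. In cHC-like cells it was 23.6 and 45.5 CPM in Coch + Tmx P26 and 27.7 and 44.0 CPM in Coch + Tmx P33, inside the SC-like range. In HC-like cells it ran from 0 to 21.2 CPM. Etv1 was lower in HC-like than in SC-like cells by 1.93 ± 0.62 (log2, SE; adjusted p = 0.0313), a call lost without any 1 of the 4 libraries that hold both classes (adjusted p = 0.0532 to 0.168), without the Coch + Tmx P33 HC-like sums (0.175), with DESeq2 (0.134) and with a minimum of 10 cells (-0.79; 0.738). Its difference between cHC-like and SC-like cells was -0.92 ± 0.50 (95% interval -1.98 to 0.145; adjusted p = 0.204). Etv5 in SC-like cells was 35.0 and 33.7 CPM in Coch P12, 22.6 and 73.3 CPM in Coch + Tmx P33, but 2.13 CPM in Coch + Tmx P26 replicate 3 and 2.51 CPM in Coch P33. These last 2 libraries held 1 Etv5 UMI each and lay below the other 4. Etv5 was not called between any pair of the 3 classes (adjusted p = 0.151 to 0.93), and Etv4 was too low to be tested, with 8 UMIs in SC-like, 1 in cHC-like and 0 in HC-like cells.

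Of the 6 genes tested, 2 were thus called between cHC-like and SC-like cells, 1 higher and 1 lower, where 25.9% of all genes tested were called. Between HC-like and SC-like cells 5 were called, 1 higher and 4 lower, against 23.0% of all genes. Between cHC-like and HC-like cells 2 were called, both higher in cHC-like cells, where 6.22% of all genes were called higher. These 6 genes passed the filter because they were high in some class, so the shares are not read against the background. DESeq2 called none of the 6 between cHC-like and SC-like cells, none of them at an unadjusted p under 0.05 either, where it called 11.8% of all genes, and called 3 and 1 in the other comparisons, where it called 12.9% and 3.87%.

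**Figure D3:**
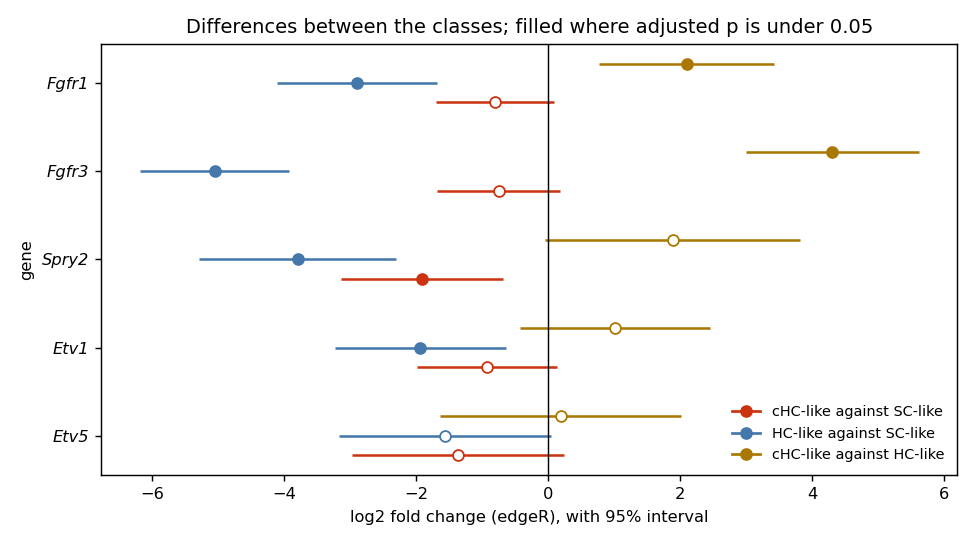
Fitted log2 fold change (horizontal axis, with 95% interval) of the 5 genes that were tested and were detected in all 3 classes, for the 3 comparisons of classes. Filled points have an adjusted p under 0.05; Fgfr3 lies at -5.05 for HC-like against SC-like cells and at -0.75 for cHC-like against SC-like cells, where its interval crosses 0.

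The rest of a list of 63 FGF pathway genes (18 ligands, 5 receptors, co-receptors, adaptors, the MAP kinase cascade, feedback inhibitors and response genes) gave 53 further genes, of which 22 could be tested. Between cHC-like and SC-like cells 3 were higher and 4 lower, 7 of the 22 where 25.9% of all genes were called, and the median log2 difference of the 22 was 0.17, with 0.18 over all genes. Fgfrl1, a receptor without a kinase domain, was lower by 3.17 ± 0.58 (log2, SE; adjusted p = 0.000679), and Dusp6, a phosphatase of ERK induced by FGF signalling, by 2.62 ± 0.52 (adjusted p = 0.0013). Map2k1 (-1.81) and Nras (-1.43), both of the kinase cascade, were lower as well, while the intracellular factor gene Fgf11 (3.06) and the ubiquitin ligase gene Cbl (1.80) were among the higher genes. Among 12 feedback inhibitors, 4 were tested, with Spry2 and Dusp6 lower and Cbl higher in cHC-like cells. Dusp6 also differed between groups within SC-like cells. It was higher by 3.47 (log2) in Coch + Tmx P33, the group that held both classes, than in the only Coch + Tmx P26 sum. Between HC-like and SC-like cells 1 of the 22 was higher and 4 were lower, where 23.0% of all genes were called, with a median of 0.15 against 0.06 over all genes. The largest of these differences was in the ligand gene Fgf9 (-4.75 ± 0.84; adjusted p = 0.000621), with 174 UMIs in SC-like and 1 UMI in HC-like cells. Between cHC-like and HC-like cells Fgf11 was higher (4.33) and Fgf10 (-4.45) and Fgfrl1 (-2.66) were lower. The Fgf10 signal in HC-like cells lay in the Coch + Tmx P33 libraries (84.8 and 45.1 CPM), with 4.57 and 0 CPM in Coch P12. Without the Coch + Tmx P33 HC-like sums Fgf9 stayed called between HC-like and SC-like cells (adjusted p = 2.52e-07), Fgf11 (0.136) and Fgfrl1 (-0.99; 0.734) were no longer called between cHC-like and HC-like cells, and Fgf10 did not pass the filter.

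Across all 13 classes, each class was set against the unweighted mean of the others in 1 fit of 70 sums, in which 9 of the 10 genes (not Etv4) passed the filter. Classes were built without these genes. Of 117 tests, 30 were called higher and 2 lower (Etv5 in Reissner membrane-like cells, and Fgfr1 in neutrophil-like cells, where it had no UMI and 26.2% of all genes were called), and 4 classes had no call, while the share of all genes called ran from 14.2% to 48.6% between classes. In some tests edgeR's F statistic was vanishingly small, so they could not give a call. The SE, worked out from F, is then far above the difference and does not measure a spread. Examples were Fgfr2 in cHC-like cells (-4.99, SE 4990000), Fgfr3 in Reissner membrane-like cells (-2.35, SE 2346000) and Fgf8 in HC-like cells (5.89, SE 13100). The split between higher and lower calls, and the classes without a call, are therefore not read as a result.

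**Figure D4:**
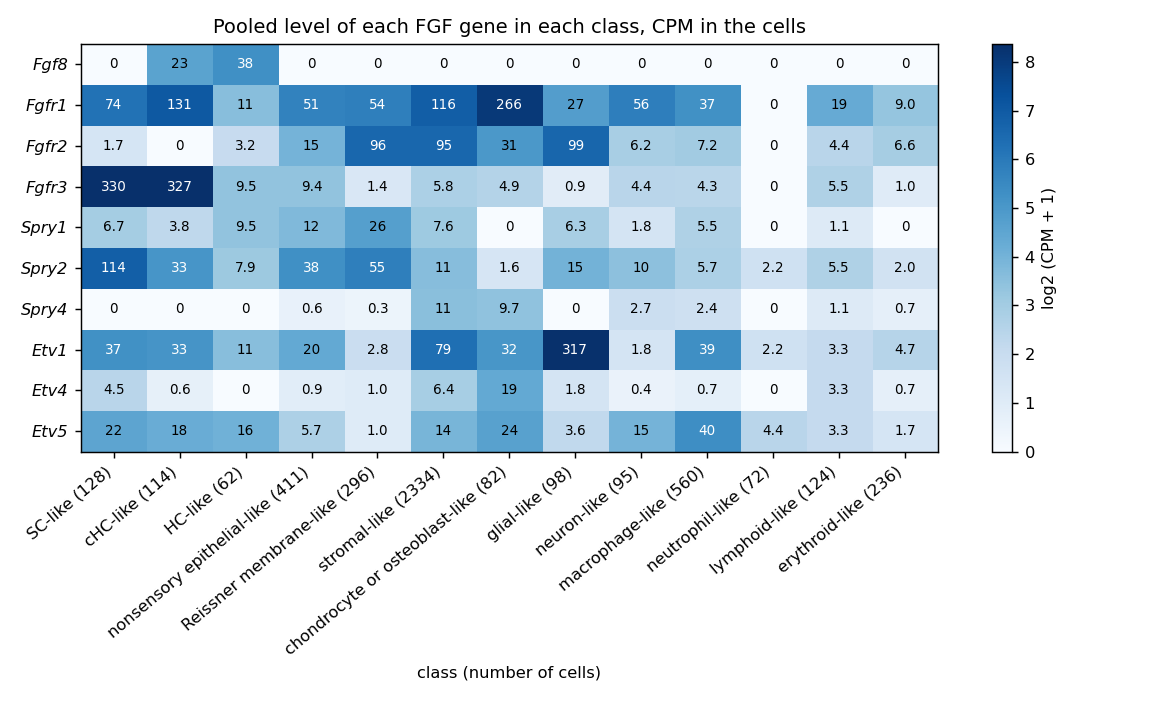
Level of the 10 genes (rows) in the 13 classes (columns, number of cells in parentheses), pooled over libraries; colour is log2 (CPM + 1) and the printed number is the CPM. Fgfr3 reaches 330 CPM (SC-like) and 327 CPM (cHC-like), and Etv1 317 CPM in glial-like cells.

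In SC-like cells, where 21.7% of all genes were called higher, 5 of the 9 genes were higher: Fgfr3 by 6.18 ± 0.26 (log2, SE), Spry2 by 3.35 ± 0.28, Etv1 by 1.62 ± 0.41, Fgfr1 by 1.35 ± 0.36 and Etv5 by 1.32 ± 0.43. The Etv5 call was lost without Coch + Tmx P33 replicate 2 (adjusted p = 0.215) or Coch P12 replicate 1 (0.108), and the Fgfr1 call without Coch + Tmx P33 replicate 1 (0.0666). In cHC-like cells, with 26.8% of all genes called higher, Fgf8, Fgfr3, Fgfr1, Spry2 and Etv1 were higher, Fgfr3 by 6.14 ± 0.32, Fgfr1 by 1.67 ± 0.36 and Spry2 by 1.38 ± 0.41. The Fgf8 call was lost without Coch P12 replicate 1 (adjusted p = 1), the Spry2 call without Coch + Tmx P26 replicate 1 (0.111) and the Etv1 call without Coch + Tmx P33 replicate 2 (0.193).

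Fgfr3 had its 2 highest levels in SC-like cells (mean 386 CPM, SD 165, n = 6 libraries) and cHC-like cells (mean 344 CPM, SD 103, n = 4). These ranges overlapped over all libraries, while in each of the 2 libraries that hold both classes the cHC-like level was the lower, as given above. In each of the other 11 classes every library lay at 31.8 CPM or below, so that no library of these overlapped the first 2. The order among those 11 rests on few UMIs and is not read. Among the unnamed clusters the highest pooled level was 52.9 CPM, in 80 cells that also held Spry2 at 130 CPM and Fgfr1 at 99.3 CPM.

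Fgfr2 had the opposite distribution. Its mean level over libraries was 109 CPM in glial-like (SD 29.7, n = 4), 91.1 CPM in Reissner membrane-like (SD 23.7, n = 8) and 54.1 CPM in stromal-like cells (SD 40.1, n = 8, median 34.1), and 2.06 CPM or less in both the SC-like and the cHC-like class. The pooled stromal-like level was higher (94.97 CPM), since the Coch P12 libraries hold most of its UMIs. It was called higher in glial-like (4.19 ± 0.40, log2, SE), Reissner membrane-like (3.71 ± 0.28) and stromal-like cells (3.06 ± 0.28). In Reissner membrane-like cells, Spry1 (3.24 ± 0.44) and Spry2 (2.15 ± 0.28) were also higher, with 29.0% of all genes called higher, and Etv5 was lower (-3.21 ± 0.69), with 10.4% called lower. In nonsensory epithelial-like cells, with 27.0% called higher, Fgfr2, Spry1 and Spry2 were higher, by 1.30 to 1.95.

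Stromal-like cells, with 37.1% of all genes called higher, had 6 of the 9 genes higher, among them Spry4 (4.46 ± 0.40), Etv1 (2.89 ± 0.24), Fgfr1 (2.47 ± 0.22) and Spry1 (2.45 ± 0.44). Chondrocyte or osteoblast-like cells, with 11.8% called higher, had Fgfr1 (3.94 ± 0.40), Spry4 (4.83 ± 0.93) and Etv1 (1.79 ± 0.62) higher, and held the highest pooled Fgfr1 level, 266 CPM. Spry4, absent from the SC and hair cell classes, stood at 10.6 CPM in stromal-like and 9.73 CPM in chondrocyte or osteoblast-like cells.

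Etv1 reached its highest level in glial-like cells (317 CPM pooled, from 69.0 to 647 CPM over 4 libraries), where it was higher by 5.07 ± 0.31 and where 20.6% of all genes were called higher. In macrophage-like cells, with 31.0% called higher, Etv5 (2.57 ± 0.29), Etv1 (1.85 ± 0.32) and Spry4 (1.56 ± 0.55) were higher. Etv5 had a UMI in 23.6% of macrophage-like cells and 16.4% of SC-like cells, and Etv1 in 20.4% and 28.9%, so that for these 2 genes macrophage-like cells give no measure of background RNA.

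The genes whose log2 (CPM + 1) over the 70 sums correlated most with that of Fgfr3 among 11461 genes were Slc27a2 (Pearson r = 0.833), Odf3l2 (0.817), Umodl1 (0.797), Ptpn5 (0.762) and 1700016K19Rik (0.76). Sums of 1 library share its depth, and the value is a description. Among the 9 genes themselves the highest correlations over these sums were 0.519 for Spry1 with Spry2 and 0.499 for Fgfr3 with Spry2, and the lowest was -0.396 for Fgfr2 with Fgfr3.

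The study's groups were compared within classes. In SC-like cells, 5 of the genes could be tested between Coch + Tmx P33 and Coch P12, groups that differ in age and in tamoxifen together, and 1 was called where 6.21% of all genes were. Fgfr1 was higher at P33 by 2.57 ± 0.54 (log2, SE; edgeR adjusted p = 0.00199), at 221 and 132 CPM against 17.5 and 59.1 CPM. The P33 libraries lay above both P12 libraries. The call was lost without Coch + Tmx P33 replicate 1 (adjusted p = 0.0815), without Coch P12 replicate 1 (0.112) and with DESeq2 (0.269). Fgfr3 (0.78 ± 0.39; adjusted p = 0.313), Etv1 (1.39 ± 0.65; 0.268), Etv5 (0.35 ± 0.83; 0.901) and Spry2 (0.11 ± 0.48; 0.95) were not called. Without Coch P12 replicate 2, Fgfr3 (1.42; adjusted p = 0.00328) and Etv1 (2.20; 0.0321) were called as well. Each fit without a library leaves 1 in its arm, which is assumed to vary like the other groups. Fgfr1 in macrophage-like cells stood at 89.1 and 40.9 CPM in Coch + Tmx P33 and at 10.5 and 18.7 CPM in Coch P12. In Coch P33 it was 60.1 CPM there. The macrophage-like difference between P33 and P12 was 2.22 ± 0.50 (edgeR adjusted p = 0.0715), close in size to that in SC-like cells. The same comparison gave 1.02 in stromal-like and -0.30 in nonsensory epithelial-like cells, the latter with only 1 library in Coch P12.

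At the same age, SC-like cells of Coch + Tmx P33 could be set against the single Coch P33 library, with no test. The mean Fgfr1 level was 3.91 times that of Coch P33 (2.92 and 4.90 for the 2 libraries taken singly), and the mean Fgfr3 level 1.92 times (2.36 and 1.49). For Spry2 the ratio was 0.918, with 1 library above and 1 below Coch P33. Atoh1 moved with these differences: in SC-like cells it was 402 and 637 CPM in Coch + Tmx P33 replicates 1 and 2, 30.1 CPM in Coch P33, and 52.5 and 84.4 CPM in Coch P12 replicates 1 and 2. Its part in the Fgfr1 difference was not tested. Over all libraries 58 of the 128 SC-like cells held an Atoh1 UMI, against 4.29% of macrophage-like cells. These shares are unthinned, at median depths of 14253 and 6052.5 UMIs. Of those 58 cells 56 held Fgfr3, where 118 of all 128 SC-like cells did.

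**Figure D5:**
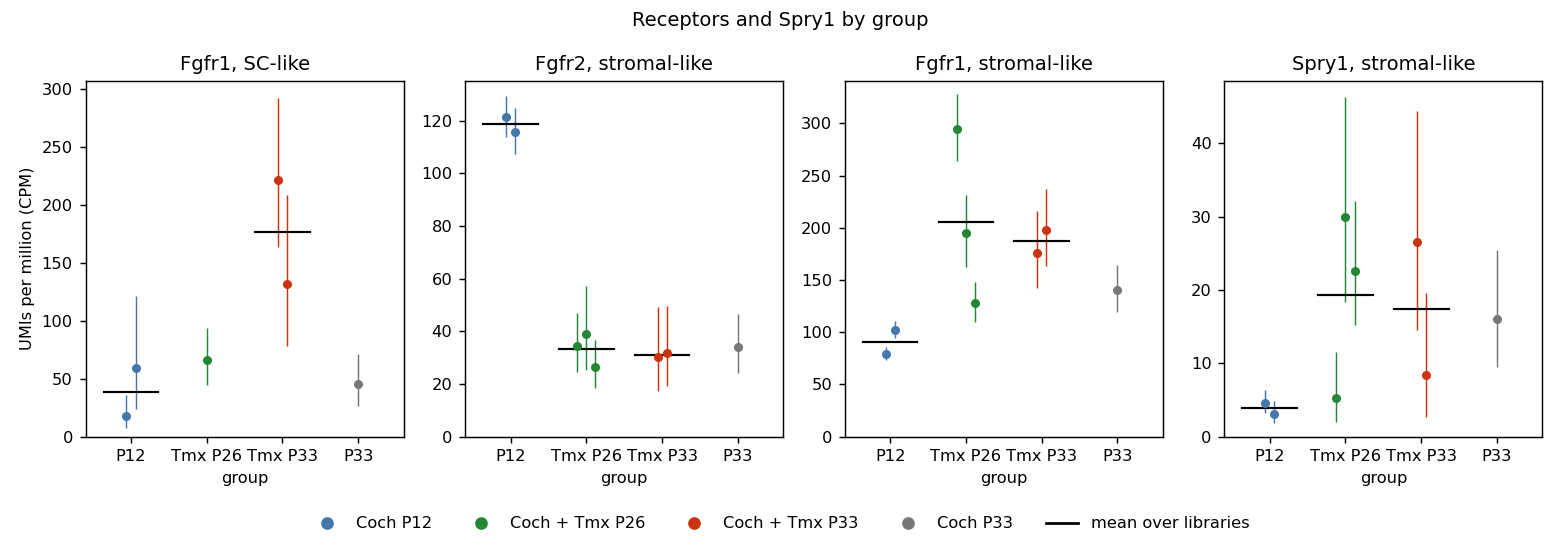
Level in CPM (vertical axis, a separate scale per panel) of Fgfr1 in SC-like cells and of Fgfr2, Fgfr1 and Spry1 in stromal-like cells, by group. Points are libraries with exact 95% Poisson intervals for counting error, and black lines means; Fgfr2 in stromal-like cells lies at 116 and 122 CPM in Coch P12 and between 26.3 and 39.0 CPM in the other 6 libraries.

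In stromal-like cells Fgfr2 separated Coch P12 from all later libraries. It was 122 and 116 CPM in Coch P12 replicates 1 and 2, 34.3, 39.0 and 26.3 CPM in Coch + Tmx P26 replicates 1 to 3, 30.3 and 31.8 CPM in Coch + Tmx P33, and 34.0 CPM in Coch P33. It was lower than at P12 by 1.89 ± 0.22 (log2, SE; adjusted p = 0.000338) in Coch + Tmx P26 and by 1.95 ± 0.27 (adjusted p = 0.00154) in Coch + Tmx P33. Both calls held under all the alternatives tried, and the Coch P33 library, which had no tamoxifen, lay with the induced ones. The stromal-like clusters differed by age: 3 were 96.8% to 100% P12 cells and the other 2 were under 1% P12 cells. By cluster, Fgfr2 was 156 CPM in the P12 cluster led by Otor and Rarres1, 50.3 and 40.2 CPM in the other P12 clusters, and 18.7 and 42.2 CPM in the later clusters, so the makeup of the class moved with the result and its part was not tested.

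Fgfr1 and Spry1 went the other way. Fgfr1 was 79.2 and 102 CPM in Coch P12 and 128 to 295 CPM in the other 6 libraries, without overlap, and was higher in Coch + Tmx P26 than in Coch P12 by 1.13 ± 0.29 (adjusted p = 0.0392). Spry1 was 4.55 and 3.13 CPM in Coch P12 and 5.28 to 29.98 CPM in the other 6, and was higher in Coch + Tmx P26 by 2.25 ± 0.59 (adjusted p = 0.0427). The Fgfr1 call was lost without Coch + Tmx P26 replicate 1 or 2, Coch + Tmx P33 replicate 1 or 2, or Coch P12 replicate 1 (adjusted p = 0.0713 to 0.252). The Spry1 call was lost without Coch + Tmx P26 replicate 2 or 3, or without any 1 library of Coch + Tmx P33 or Coch P12 (adjusted p = 0.0552 to 0.187). Fgfr1 and Spry1 in Coch + Tmx P33 against Coch P12 gave 1.02 ± 0.32 (adjusted p = 0.0909) and 2.12 ± 0.73 (0.122). By cluster, Fgfr1 was 64.8, 208 and 95.5 CPM in the P12 clusters and 93.5 and 259 CPM in the later ones. Spry1 was 2.55, 2.73 and 9.59 CPM in the P12 clusters and 29.9 and 7.02 CPM in the later ones. For both genes the clusters of the 2 ages overlapped, and the part of class makeup was not tested. In all, 3 of the 8 genes tested were called for Coch + Tmx P26, where 6.28% of all genes were, and 1 of 8 for Coch + Tmx P33, where 5.86% were. Both comparisons use the same Coch P12 libraries. Coch + Tmx P26, here and in the other classes, includes replicate 3, whose Atoh1 level was below that of the uninduced libraries. For Coch + Tmx P33 set against Coch + Tmx P26, edgeR and DESeq2 called none of the 8, with 1 at an unadjusted p under 0.05 in edgeR, and 0.00955% of all genes were called.

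In nonsensory epithelial-like and macrophage-like cells edgeR called none of the genes in the same 3 comparisons between groups (27 tests, 6 of them with an unadjusted p under 0.05), and DESeq2 called none. The share of all genes called in nonsensory epithelial-like cells against Coch P12 was 0.374% at P26 and 0.528% at P33, and 0.00% between the induced groups. In macrophage-like cells it was 0.128%, 0.911% and 0.0257% in the same order. Fgfr1 in macrophage-like cells, for example, differed by 2.22 ± 0.50 between Coch + Tmx P33 and Coch P12 (adjusted p = 0.0715). In nonsensory epithelial-like cells Coch P12 entered with 1 library, replicate 2, because replicate 1 held only 6 cells. Comparisons against Coch P12 there rest on that library and on the spread of the other groups. Fgfr1 was 195 CPM in the library left out and 43.8 CPM in the one kept.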

How the data were processed

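The deposited values were raw UMI counts per gene and cell barcode, made by the authors with Cell Ranger against mm10 (both from the submitters' processing notes; versions not given in the sources used here). Of 8061 barcodes, 1954 with under 500 genes, 84 with 25% or more mitochondrial UMIs and the 53 with the highest Scrublet doublet score in scanpy 1.11.5 (a rate of 0.8% per 1000 barcodes, 0.88% of 6023 scored) were left out. No pair of libraries shared more than 2 barcodes. Cells were clustered (2000 variable genes, 30 components, Leiden resolution 1) without the 63 FGF pathway genes, Atoh1 and listed transcription factors, and 22 of 32 clusters were named from fixed markers, leaving 1358 cells unnamed.

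Counts were summed per library and class, filtered with filterByExpr, normalised by TMM and tested with the quasi-likelihood test of edgeR 4.0.16 (R 4.3.3), adjusted over all genes; DESeq2 1.42.0 was an alternative. Standard errors were the size of the log2 difference divided by the square root of edgeR's F statistic. Intervals of fold changes were built on these and used edgeR's total degrees of freedom. Cells were not used as replicates. The study tested single cells, which was not done here. Data were simulated with 1 mean per gene over all sums of a fit, so without the real differences between classes and libraries. The rates hold for such data only. In them, 51% of 4-fold and 3% of 2-fold changes between cHC-like and SC-like cells were called (5692 genes, 3 false calls). It was 52% and 5% between SC-like groups (5316 genes), and 56% and 3% between stromal-like groups (9894 genes), so 2-fold differences were mostly not detectable there. For SC-like cells against the mean of the other classes it was 75% and 48% (8644 genes). Genes were named by a rule: all 10 members, the called genes of the pathway list (at most 10 per comparison) and the 5 genes most correlated with Fgfr3. A called gene of the list is not reported here by name. The members and lists were chosen with earlier results of these data known. Promoter windows of RefSeq (GRCm38.p6) matched 6 of the 10 genes by symbol.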

Additional observations from a re-analysis of the deposited data

Results flagged for a closer look

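Of 60 sets of 4 to 8 libraries checked for 1 library far from the others (Dixon's ratio), 10 had such a library. The chance rate of about 1 in 20 is for continuous values. Sets at 0 in all libraries but 1 give a ratio of 1 whatever the count, so no excess over that rate is read. In 4 of the 10 a member lay in the 3 main classes. Fgf8 in HC-like cells was 109.639 CPM in Coch P12 replicate 1 and 0 in the other 3 libraries. Spry2 in HC-like cells was 31.806 CPM in Coch + Tmx P33 replicate 1 and 0 elsewhere, from 3 UMIs. Spry1 in SC-like cells was 43.956 CPM in Coch + Tmx P33 replicate 2, with 13.549 CPM next, and Etv4 in cHC-like cells 2.945 CPM in Coch + Tmx P26 replicate 1, from 1 UMI, and 0 elsewhere. In macrophage-like cells Spry2 was 15.236 CPM in Coch + Tmx P33 replicate 1, with 6.204 CPM next. In Reissner membrane-like cells Fgfr3 was 6.922 CPM in Coch + Tmx P26 replicate 3, with 2.941 CPM next, and in the Coch P33 library Spry4 (2.941 CPM, others at 0) and Etv4 (5.883 CPM, 2.151 CPM next) were highest. In nonsensory epithelial-like cells Spry4 was 0.974 CPM in Coch + Tmx P33 replicate 2 and 0 elsewhere, and Etv4 7.959 CPM in Coch P12 replicate 2, with 2.197 CPM next.

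For 2 genes the libraries of Coch + Tmx P33 and Coch P12 did not overlap in a pair of classes and lay on opposite sides, though edgeR called none of these differences within its class. For Etv1 the P33 mean minus the P12 mean was 38.24 CPM in SC-like cells (edgeR adjusted p = 0.268) and -11.22 CPM in stromal-like cells (0.733). For Etv5 it was 6.03 CPM in stromal-like cells (edgeR adjusted p = 0.63) and -7.04 CPM in macrophage-like cells (0.921). Neither difference between classes was tested.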

How the results depend on the processing

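Of 726 recomputed values of single genes, 644 kept their direction and their side of the threshold, 50 lost a call, 14 gained one and 18 changed sign, and the cause of these changes was not tested. With DESeq2 the genes called fell from 1826 to 832 (cHC-like against SC-like), 1622 to 912 (HC-like against SC-like), 778 to 273 (cHC-like against HC-like) and 370 to 77 (SC-like cells, Coch + Tmx P33 against Coch P12), and the members called to 0, 3, 1 and 0. A minimum of 10 cells gave 3 members against SC-like for HC-like cells, and 436 genes and 1 member for cHC-like against HC-like cells, with Etv1 at -0.19 and Fgf8 at -3.39 there. A mitochondrial limit of 10% left no HC-like comparison, and gave 573 genes and 0 members for cHC-like against SC-like cells, 3 members for cHC-like cells against the other classes (Etv5 at -0.01) and 196 genes for SC-like cells at P33 against P12 (Etv5 at -0.18). Without the library block 1 member was called for cHC-like against SC-like cells, Fgfr1 turned to 0.74, and Spry1 in cHC-like cells against the other classes turned from -0.10 to 0.35. Without the Coch + Tmx P33 HC-like sums, an alternative chosen after seeing the data, 3 members were called for HC-like against SC-like cells and 461 genes for cHC-like against HC-like cells, where Fgf8 turned to -3.00 and Spry2 gained a call (adjusted p = 0.0392), and the members called for cHC-like against SC-like cells were 3 lower and 0 higher. No filter on low counts gave 1197 genes and 3 members (stromal-like, P33 against P12), 1224 genes (P26 against P12) and 2 members over the nonsensory epithelial-like and macrophage-like comparisons.

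Leaving out each library in turn gave 508 to 1970 genes and 0 to 2 members for cHC-like against SC-like cells, 751 to 1662 and 3 to 5 for HC-like against SC-like, 84 to 1021 and 1 to 2 for cHC-like against HC-like (Etv5 -0.13 to 0.61), 154 to 511 and 0 to 3 for SC-like cells at P33 against P12 (Etv5 -0.57 to 1.05, Spry2 -0.93 to 0.63), and 0 to 1 members over the nonsensory epithelial-like and macrophage-like comparisons. For stromal-like cells it gave 124 to 867 genes and 1 to 3 members at P33 against P12 (Etv4 -1.21 to 0.66, Spry2 -2.50 to 1.06, Spry4 -0.68 to 1.96) and 281 to 797 genes and 1 to 3 members at P26 against P12 (Etv1 -0.27 to 0.25). Spry1 in cHC-like cells against the other classes ran from -0.17 to 0.14. Unthinned, the shares of cells with Fgfr3 were 92.2% (SC-like), 81.6% (cHC-like), 6.45% (HC-like) and 1.96% (macrophage-like), with Spry2 61.7% and 28.9% and with Fgfr1 44.5% and 64.9% (SC-like and cHC-like). Thinned to 2000 UMIs, they were 47.7% and 42.1% for Fgfr3, 17.97% for Spry2 in SC-like cells, and 16.4% and 25.4% for Fgfr1. Deviations of same-numbered libraries correlated at 0.095 in SC-like cells at -0.138 to 0.15 in stromal-like cells and at -0.074 to 0.077 in macrophage-like cells, and at 0.15 and 0.111 for the 2 pairs in nonsensory epithelial-like cells, so the numbers were not taken to pair the libraries. With the replicate number as a block, SC-like cells gave 427 genes and 1 member at P33 against P12, and stromal-like cells 664 and 1 at P33 and 558 and 2 at P26, where Spry1 was lost (adjusted p = 0.177). In nonsensory epithelial-like cells the block took the genes called from 29 to 332 (P26 against P12), 41 to 288 (P33 against P12) and 0 to 156 (P33 against P26), with 0 members in each. In macrophage-like cells it took them from 10 to 29, 71 to 122 and 2 to 0 in the same order, again with 0 members.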
